A study of Mus musculus with 6 samples.

Results

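The cytosolic nucleic acid sensors described here are 8 genes of innate antiviral defence, chosen by name: the 3 RIG-I-like receptor genes Ddx58, Ifih1 and Dhx58, the adaptor gene Mavs, the ubiquitin ligase gene Trim25, the Z-nucleic-acid sensor gene Zbp1, the gene Tmem173 of the DNA-pathway adaptor STING, and Eif2ak2, the gene of the RNA-activated kinase PKR. All 8 were present, once each, among the 14750 genes of the deposited table. RNA was measured by sequencing in CD8+ T cells, the lineage of cytotoxic lymphocytes, isolated from mouse spleen after hematopoietic stem cell transplantation (HSCT). The 6 libraries form 2 groups by the label for donor and host: 3 are labelled allo-HSCT, with a C57BL/6 donor and a Balb/c host, and 3 are labelled syn-HSCT, with Balb/c as donor and host. The sample titles and column names carry the letter S for the allo-HSCT label and the letter A for the syn-HSCT label, the reverse of the labels' own initials, and what these letters stand for is not stated. The host strain and the strain field of the labels, Balb/c, are common to both groups, and no age, sex, day after transplantation or conditioning is given. Separate mice are not named in the labels, so p-values reflect the spread among these 6 libraries alone, part of which may be technical.

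Cells recognise viral or misplaced nucleic acid in the cytosol with a small set of proteins, many of which are themselves induced by interferon. RIG-I, encoded by Ddx58, binds RNA ends that carry a triphosphate; MDA5, encoded by Ifih1, coats long double-stranded RNA; and LGP2, encoded by Dhx58, lacks the signalling domains of the other two and tunes their activity. Both signalling receptors converge on MAVS at the mitochondrial surface, TRIM25 promotes RIG-I signalling, STING answers to the cyclic dinucleotide that cGAS makes on DNA, ZBP1 can engage the kinase RIPK3 and start cell death, and PKR stops translation by phosphorylating the initiation factor eIF2.

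Values are FPKM, the authors' fragments per length of gene and per depth of library. For most genes that length fitted all annotated exons together, so levels of different genes depend on the exon annotation. Which exons these cells transcribe was not tested. The fragment totals behind the 6 libraries ranged from 15154000 to 18715000, and 12404 genes that reached 1 FPKM in 3 or more libraries were tested. Genes that differ between the strains ran against the labels. H2-Ea-ps, an MHC class II gene that Balb/c mice transcribe and C57BL/6 mice do not, averaged 1955 FPKM ± 48.9 in allo-HSCT-labelled libraries, against 4.76 FPKM ± 1.66 in syn-HSCT-labelled libraries (SD, n = 3 each). The host is Balb/c under both labels, and which cells the H2-Ea-ps RNA came from was not tested. Ly6a, a surface antigen gene that C57BL/6 T cells express more strongly, averaged 28.6 FPKM ± 1.75 and 331.9 FPKM ± 0.438 in the same groups (SD, n = 3 each). Both the titles' letters and the strain genes thus run against the group labels. Every direction below is one between libraries as labelled, and every one would turn round if the labels were exchanged. Of 9 T cell markers, 3 were called higher in allo-HSCT-labelled libraries (Cd8a, Lck and Cd4), 5 lower (Thy1, Cd3g, Cd3d, Cd247 and Cd3e) and 1, Cd8b1, was not called. Thy1 had a log2 difference of -0.72 and Cd247 of -0.32, and Cd4, of helper T cells, averaged 4.84 FPKM ± 0.323 in allo-HSCT-labelled libraries, against 0.809 FPKM ± 0.213 for syn-HSCT-labelled ones (SD, n = 3 each). CD8 genes were high in both groups, with Cd8b1 at 490 FPKM ± 20.8 in allo-HSCT-labelled libraries, against 483 FPKM ± 9.38 in syn-HSCT-labelled libraries (SD, n = 3 each). Markers of other cells differed widely. All 12 tested dendritic cell markers and 9 of 10 neutrophil markers were called higher in allo-HSCT-labelled libraries, and the last neutrophil marker, Elane, was not called. Of 11 tested macrophage and monocyte markers, 10 were called higher and 1, Ly6c2, which T cells also express, was called lower, at 37.1 FPKM ± 1.2 in allo-HSCT-labelled libraries, against 122.2 FPKM ± 8.0 for syn-HSCT-labelled ones (SD, n = 3 each; limma adjusted p = 3.94e-07). The 14 dendritic cell markers in the table summed to 2279 to 2314 FPKM in allo-HSCT-labelled libraries, against 254 to 264 FPKM for syn-HSCT-labelled ones, where only Cd209a was at 0 in every library. These sums mix unlike genes. Cst3 alone averaged 1730 FPKM ± 8.86 and 134.6 FPKM ± 3.06 in the same order. Itgax averaged 82.4 FPKM ± 1.69 and 66.1 FPKM ± 1.70, and Clec9a 65.4 FPKM ± 2.61 and 2.29 FPKM ± 0.256 (SD, n = 3 each). The 10 neutrophil markers summed to 1983 to 2102 FPKM against 95.1 to 104 FPKM, the 12 macrophage and monocyte markers, Ly6c2 included, to 431 to 433 FPKM against 184 to 199 FPKM, and the 6 erythroid markers in the table to 60.8 to 76.5 FPKM against 1.66 to 1.79 FPKM, in the same order, with none of these at 0 in every library of a group. Of 7 B cell markers, 2 were in the table, with sums of 7.16 to 8.42 FPKM and 7.69 to 8.07 FPKM. Dendritic cells, macrophages and neutrophils also express nucleic acid sensors, and the part of these cells in the results was not tested. In bulk RNA, fewer cells of a type and less RNA per cell cannot be told apart.

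The question asked of the sensor genes is how their RNA differs between CD8+ T cells labelled as coming from allogeneic and from syngeneic transplants. In the labels the donor strain changes together with the transplant type, so differences tied to either cannot be told apart. Most of the sensors rose modestly in allo-HSCT-labelled libraries, and the largest gain was 2.06-fold, for Dhx58; were the labels exchanged, most would be lower and the largest gain would be 1.37-fold, for Ifih1. By limma with Benjamini-Hochberg adjustment over all tested genes, 5 of 8 were called higher (Dhx58, Ddx58, Trim25, Zbp1 and Mavs), where 34.7% of all tested genes were called higher. Ifih1 and Tmem173 were called lower, 2 of 8, where 33.0% of all tested genes were called lower, but with libraries scaled to their CD3 genes Ifih1 had a log2 difference of 0.02 and was not called and Tmem173 was called higher at 0.28. Eif2ak2 was not called. The libraries of the groups did not overlap at any of the 8 genes, as was true of 72.3% of tested genes. The median log2(FPKM + 1) difference was 0.29 over the 8 genes and 0.01 over all tested genes, while the median size of the difference, whatever its sign, was 0.35 over the 8 genes and 0.33 over all tested genes. The typical size of change of the sensors was thus close to that of all tested genes. Summed over the 8 genes, the level was 156 to 159 FPKM in allo-HSCT-labelled libraries, against 136 to 137 FPKM for syn-HSCT-labelled ones.

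**Figure D1:**
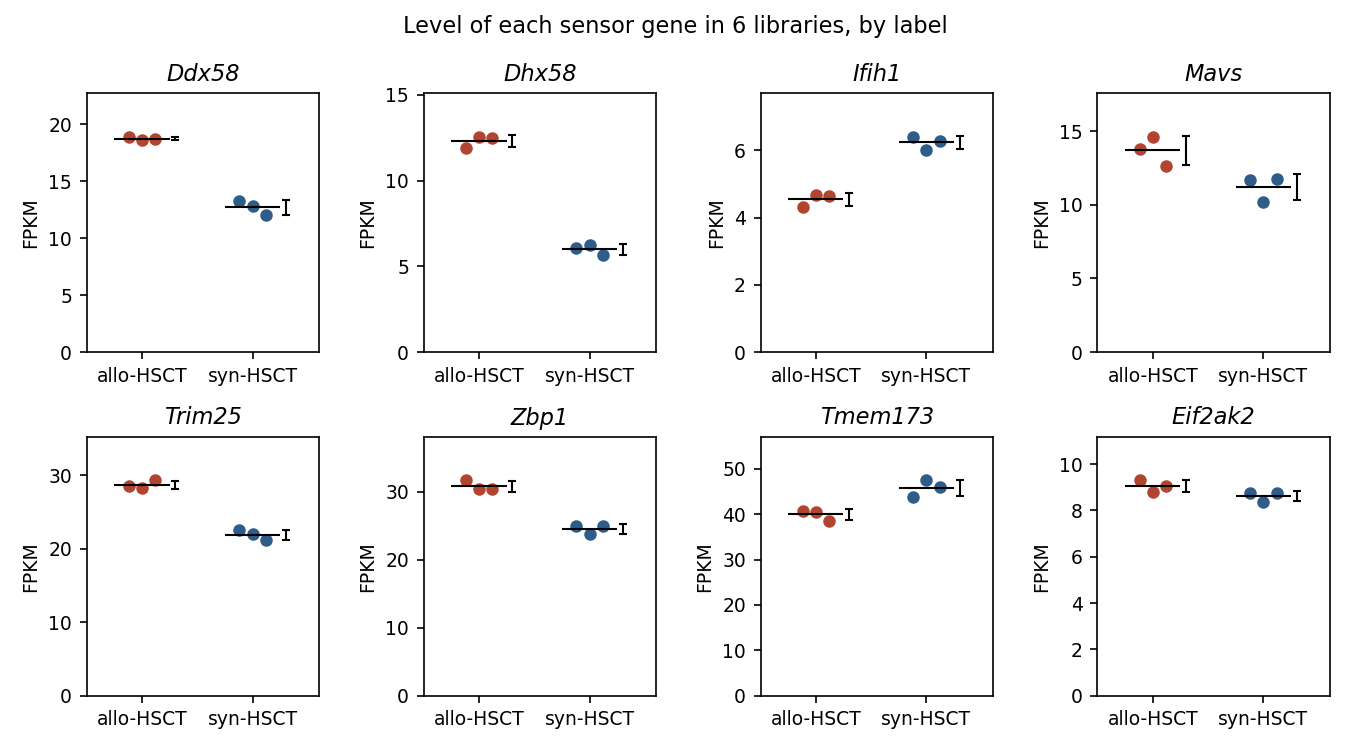
FPKM of each sensor gene (vertical axes, each from 0) in libraries labelled allo-HSCT (red, left) and syn-HSCT (blue, right); points are libraries, horizontal bars group means and whiskers 1 SD (n = 3). The groups do not overlap at any gene, and Ifih1 and Tmem173 are the genes whose red points lie below the blue ones in deposited FPKM.

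The RIG-I-like receptor genes did not move together. Dhx58, which encodes the regulator LGP2, was at 11.9, 12.6 and 12.5 FPKM in replicates 1 to 3 labelled allo-HSCT, against 6.07, 6.26 and 5.63 FPKM in replicates 1 to 3 labelled syn-HSCT. Every library labelled allo-HSCT lay well above every library labelled syn-HSCT, with a log2 difference of 0.93 ± 0.05 (SE, limma adjusted p = 5.61e-06), the largest of the 8 genes. Dhx58 is on chromosome 11 from 100694884 to 100704271 in GENCODE vM21 (GRCm38), and 141 of its exonic bases overlap the antisense gene Dhx58os; whether fragments were counted by strand is not given in the sources used here, so reads of the pair cannot be told apart.

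Ddx58, which encodes the RNA sensor RIG-I, was at 18.9, 18.6 and 18.7 FPKM in replicates 1 to 3 labelled allo-HSCT, against 13.3, 12.9 and 12.0 FPKM in replicates 1 to 3 labelled syn-HSCT. The libraries labelled allo-HSCT were close to each other (coefficient of variation 0.865%), and all were above the other group, 1.47-fold by the means (log2 difference 0.53 ± 0.04, SE, limma adjusted p = 4.10e-05). The gene lies on chromosome 4 from 40203773 to 40239828. Its FPKM correspond to 2000 to 2144 fragments in allo-HSCT-labelled libraries, against 1434 to 1640 for syn-HSCT-labelled ones, the deepest coverage of the 3 receptor genes.

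Ifih1, which encodes MDA5, the sensor of long double-stranded RNA, was the receptor gene that went the other way in deposited FPKM, although not when libraries were scaled to CD3 genes. It was at 4.33, 4.67 and 4.63 FPKM in replicates 1 to 3 labelled allo-HSCT, against 6.41, 6.02 and 6.28 FPKM in replicates 1 to 3 labelled syn-HSCT. All 3 libraries labelled allo-HSCT were below all 3 labelled syn-HSCT, by 1.37-fold (log2 difference -0.38 ± 0.05, SE, limma adjusted p = 6.08e-04). Ifih1 lies on chromosome 2 from 62595798 to 62646255, and its values rest on 550 to 959 fragments.

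Because ratios within a library do not depend on how libraries are scaled, the makeup of the receptor family was compared directly. Ifih1 made up 12.8% ± 0.389 of the summed FPKM of the 3 receptor genes in allo-HSCT-labelled libraries, against 25.0% ± 1.16 in syn-HSCT-labelled libraries (SD, n = 3 each). Dhx58 made up 34.6% ± 0.619 in allo-HSCT-labelled libraries, against 24.0% ± 0.759 in syn-HSCT-labelled libraries (SD, n = 3 each), while Ddx58 held 52.7% ± 1.01 and 51.0% ± 0.714 in the same groups. The Ifih1 and Dhx58 shares thus shifted against each other by 12.3 and 10.6 percentage points, and the Ddx58 share moved by 1.68 points. There were 4.37, 3.99 and 4.04 FPKM of Ddx58 for each FPKM of Ifih1 in replicates 1 to 3 labelled allo-HSCT, against 2.07, 2.14 and 1.91 in replicates 1 to 3 labelled syn-HSCT. Dhx58 exceeded Ifih1 2.71-fold ± 0.0349 in allo-HSCT-labelled libraries, whereas the ratio was 0.961 ± 0.0715 in syn-HSCT-labelled libraries (SD, n = 3 each). The sum of the 3 genes, which does depend on scaling, was 35.6 FPKM ± 0.383 in allo-HSCT-labelled libraries, against 24.9 FPKM ± 0.944 in syn-HSCT-labelled libraries (SD, n = 3 each). For each of these quantities the groups did not overlap and the two-sided exact permutation test gave p = 0.10, the smallest that 3 libraries against 3 can give, so none can pass 0.05; adjusted over the 10 shares, sums and ratios computed, p = 0.111. The 3 shares were planned, and the sum and ratios were chosen with the values known. Levels of Dhx58 and Ifih1 are per 3272 and 8165 annotated exonic bases. In fragments, Dhx58 had 607 to 672 and Ifih1 550 to 623 in allo-HSCT-labelled libraries, against 304 to 370 and 801 to 959 in syn-HSCT-labelled ones.

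**Figure D2:**
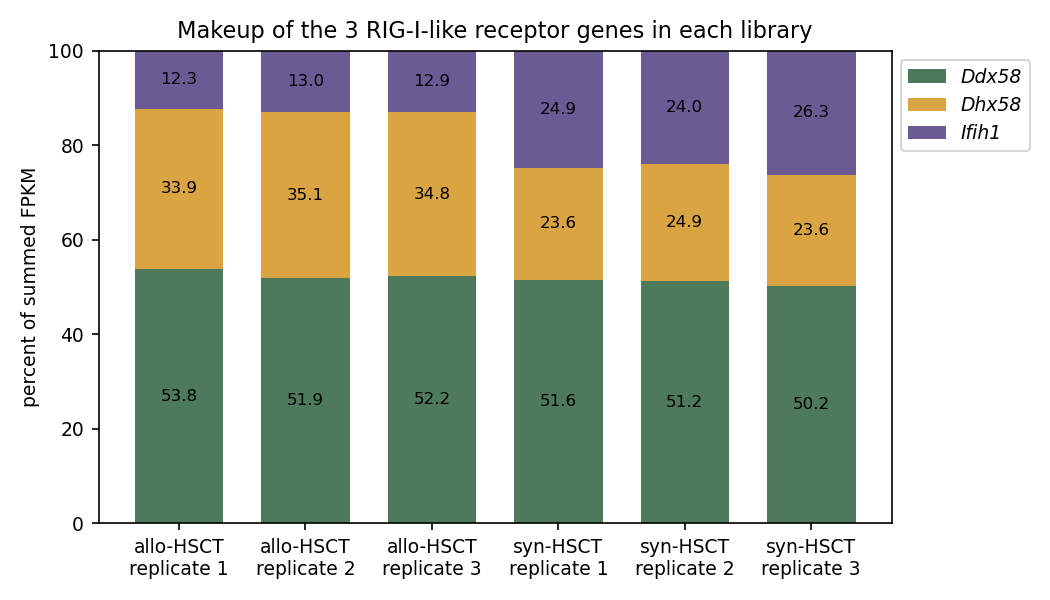
Percent of the summed FPKM of the 3 RIG-I-like receptor genes (vertical axis, from 0) taken by each gene in each library (horizontal axis); segments are genes and the printed figures their percentages. Ifih1 takes 12.3 to 13.0% in allo-HSCT-labelled libraries, against 24.0 to 26.3% in syn-HSCT-labelled libraries, and Dhx58 33.9 to 35.1% and 23.6 to 24.9%.

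Promoter sequences were read because interferon induces many of these genes. RefSeq windows of 300 bases, 250 before to 50 after the start site (build GRCm38.p6), were used. The promoters of the other sensor genes were not searched, so the sensor counts below leave them out. Windows were searched for 5 of the 8 genes: Ddx58, Ifih1, Mavs, Trim25 and Eif2ak2. The core of the interferon-stimulated response element, searched as GAAANNGAA on both strands, matched in 4 of these 5, all but Mavs, and in 8.56% of 32851 windows of the same length. The gamma-activated site, searched as TTCNNNGAA (the same on both strands), matched in Eif2ak2 alone, and in 8.30% of windows. 3 windows are shown in full, one from a gene called higher, one called lower in deposited FPKM and one not called, to show that all carry the first motif; letters run 5′ to 3′ on the gene's strand, and capitals mark matches to either motif.
Ddx58, minus strand, chr4:40239776-40240075: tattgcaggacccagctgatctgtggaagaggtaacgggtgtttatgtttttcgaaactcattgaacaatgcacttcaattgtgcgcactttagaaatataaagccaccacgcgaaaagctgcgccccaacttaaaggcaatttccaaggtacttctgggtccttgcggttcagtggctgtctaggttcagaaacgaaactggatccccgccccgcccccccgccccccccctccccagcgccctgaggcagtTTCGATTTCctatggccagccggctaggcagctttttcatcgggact
Ifih1, minus strand, chr2:62646206-62646505: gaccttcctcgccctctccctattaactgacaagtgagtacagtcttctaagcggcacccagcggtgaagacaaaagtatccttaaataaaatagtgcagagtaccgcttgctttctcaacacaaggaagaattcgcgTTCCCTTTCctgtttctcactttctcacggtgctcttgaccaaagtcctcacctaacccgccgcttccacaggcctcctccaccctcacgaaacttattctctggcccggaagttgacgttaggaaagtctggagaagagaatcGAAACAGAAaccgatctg
Eif2ak2, minus strand, chr17:78882523-78882822: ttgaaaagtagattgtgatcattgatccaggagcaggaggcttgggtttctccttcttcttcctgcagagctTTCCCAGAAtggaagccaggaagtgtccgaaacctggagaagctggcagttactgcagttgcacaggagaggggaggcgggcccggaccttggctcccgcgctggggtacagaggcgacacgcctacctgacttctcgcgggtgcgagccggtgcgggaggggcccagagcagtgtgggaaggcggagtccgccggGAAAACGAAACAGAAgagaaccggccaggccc
In Ddx58 the match begins 4 bases into the transcribed part, on the opposite strand. Ifih1 has a match on the opposite strand beginning 112 bases before the start site and another, GAAACAGAA, beginning at base 33 of the transcribed part. The same letters GAAACAGAA begin at base 25 in Eif2ak2, where they overlap a second match that begins at base 19. Trim25, not printed, has a match 9 bases before its start. The matches describe letters in these windows of the C57BL/6J reference, and genes with matches were found among those called higher, called lower and not called.

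The adaptor and ligase of the RIG-I pathway rose with Ddx58. Mavs, the gene of the mitochondrial adaptor, was at 13.8, 14.6 and 12.7 FPKM in replicates 1 to 3 labelled allo-HSCT, against 11.7, 10.2 and 11.7 FPKM in replicates 1 to 3 labelled syn-HSCT. The groups did not overlap, and Mavs had the widest spread of the 8 genes, with coefficients of variation of 7.18% and 7.80% in the same order (log2 difference 0.27 ± 0.07, SE, limma adjusted p = 0.0142). It lies on chromosome 2 from 131234063 to 131248025. The summed FPKM of Ddx58 and Ifih1, the signalling receptors, was 1.71 ± 0.128 times that of Mavs in allo-HSCT-labelled libraries, against 1.70 ± 0.147 times in syn-HSCT-labelled libraries (SD, n = 3 each; two-sided exact permutation p = 0.90, adjusted p = 0.90).

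Trim25, the gene of a ubiquitin ligase that acts on RIG-I, was at 28.5, 28.2 and 29.3 FPKM in replicates 1 to 3 labelled allo-HSCT, against 22.5, 22.0 and 21.2 FPKM in replicates 1 to 3 labelled syn-HSCT. The groups were well apart, with a 1.31-fold higher mean in allo-HSCT-labelled libraries (log2 difference 0.38 ± 0.03, SE, limma adjusted p = 6.11e-05). Trim25 lies on chromosome 11 from 88999376 to 89020293. The ratio of Ddx58 to Trim25 FPKM was 0.654 ± 0.0132 in allo-HSCT-labelled libraries, against 0.581 ± 0.0126 in syn-HSCT-labelled libraries (SD, n = 3 each; two-sided exact permutation p = 0.10, the smallest possible).

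Zbp1, which encodes a sensor of Z-form nucleic acid that can engage RIPK3, was at 31.7, 30.3 and 30.4 FPKM in replicates 1 to 3 labelled allo-HSCT, against 24.9, 23.8 and 24.9 FPKM in replicates 1 to 3 labelled syn-HSCT. All libraries labelled allo-HSCT were higher, by 1.26-fold (log2 difference 0.32 ± 0.03, SE, limma adjusted p = 1.46e-04), and the gene lies on chromosome 2 from 173206612 to 173218923. Tmem173, the gene of STING and the most abundant of the 8 in both groups, was at 40.8, 40.5 and 38.5 FPKM in replicates 1 to 3 labelled allo-HSCT, against 43.8, 47.5 and 45.9 FPKM in replicates 1 to 3 labelled syn-HSCT. Its libraries labelled allo-HSCT were all lower in deposited FPKM, by 1.15-fold (log2 difference -0.19 ± 0.04, SE, limma adjusted p = 0.00398), but not when scaled to CD3 genes. It lies on chromosome 18 from 35733679 to 35740554. Zbp1 reached 0.772 ± 0.0208 of the Tmem173 FPKM in allo-HSCT-labelled libraries, against 0.537 ± 0.0347 in syn-HSCT-labelled libraries (SD, n = 3 each; two-sided exact permutation p = 0.10, the smallest possible).

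Eif2ak2, the gene of the kinase PKR, was at 9.31, 8.82 and 9.06 FPKM in replicates 1 to 3 labelled allo-HSCT, against 8.76, 8.36 and 8.76 FPKM in replicates 1 to 3 labelled syn-HSCT. The groups did not overlap, but the lowest library labelled allo-HSCT, at 8.82 FPKM, was next to the highest labelled syn-HSCT, at 8.76 FPKM, and the log2 difference of 0.06 had a 95% interval from -0.04 to 0.16 (limma adjusted p = 0.223). The gene lies on chromosome 17 from 78852564 to 78882573 and shares 174 exonic bases with Gm26637 and 47 with the ribosomal RNA gene n-R5s29, both on the opposite strand. Eif2ak2 rests on 686 to 838 fragments per library.

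**Figure D3:**
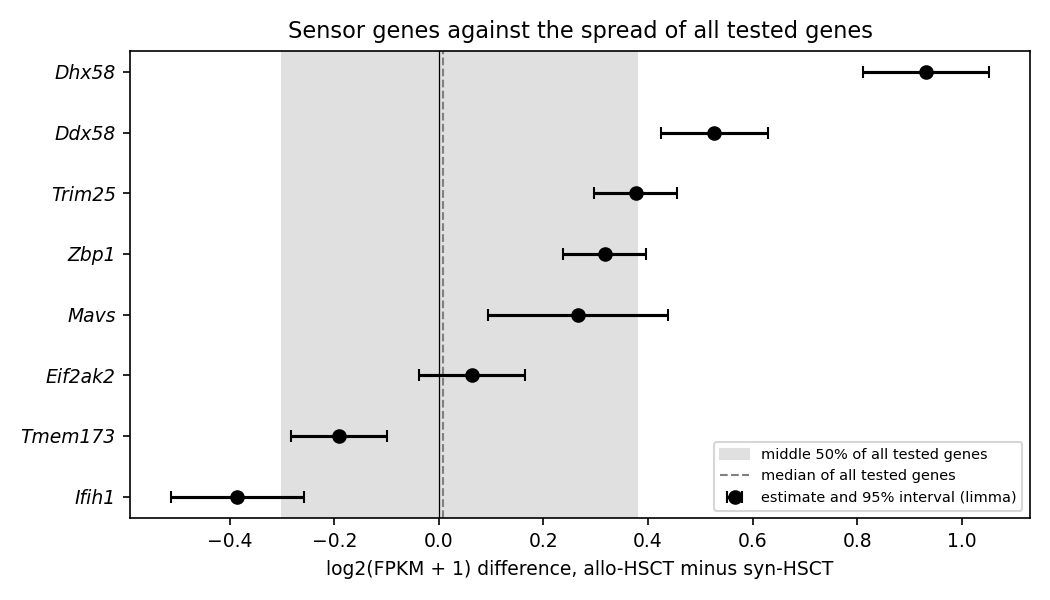
Log2(FPKM + 1) difference, allo-HSCT minus syn-HSCT (horizontal axis), of each sensor gene, with 95% intervals from limma; the grey band holds the middle 50% of all 12404 tested genes and the dashed line their median. Dhx58, Ddx58 and Ifih1 have estimates outside the band (edges -0.30 and 0.38), Trim25 lies at its edge, and only the interval of Eif2ak2 holds 0; Ifih1 and Tmem173 lie below 0 here but not with libraries scaled to CD3 genes.

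Levels per annotated length kept a similar order in both groups. In the libraries labelled allo-HSCT the order of mean FPKM was Tmem173, Zbp1, Trim25, Ddx58, Mavs, Dhx58, Eif2ak2 and Ifih1, and no neighbours in that order overlapped in range. In the libraries labelled syn-HSCT it was Tmem173, Zbp1, Trim25, Ddx58, Mavs, Eif2ak2, Ifih1 and Dhx58, and the last 2 overlapped. The lowest Mavs library labelled allo-HSCT was 12.7 FPKM and the highest Dhx58 library 12.6 FPKM, so those neighbours were barely apart. Dhx58 took the sixth place in allo-HSCT-labelled libraries but the last place for the syn-HSCT label. Ifih1 took the last place in allo-HSCT-labelled libraries but the seventh for the syn-HSCT label. Among all genes of the table, Tmem173 stood at the 91.2 percentile of mean FPKM in allo-HSCT-labelled libraries, against the 92.0 percentile in syn-HSCT-labelled libraries, and Ifih1 at the 45.2 and 54.6 percentiles.

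The scaling of the libraries set the direction of some of these calls. The CD3 genes were unequal: Cd3g, Cd3d and Cd3e had log2 differences of -0.74, -0.54 and -0.16 (limma adjusted p from 6.66e-06 to 0.00407), Cd8a had 0.55 (limma adjusted p = 2.34e-06) and Cd8b1 had 0.02 and was not called. Dividing each library by its CD3 level raised the median difference of all tested genes to 0.42, and 85.8% of all calls were then higher, against 51.2% without it. All 8 sensor genes had positive differences on that scale, and all but Ifih1 were called. Relative to the shifted median, Ifih1 stood at -0.40, Tmem173 at -0.14 and Dhx58 at 0.94. TMM factors and quantile normalization left every one of the 8 calls as it was.

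**Figure D4:**
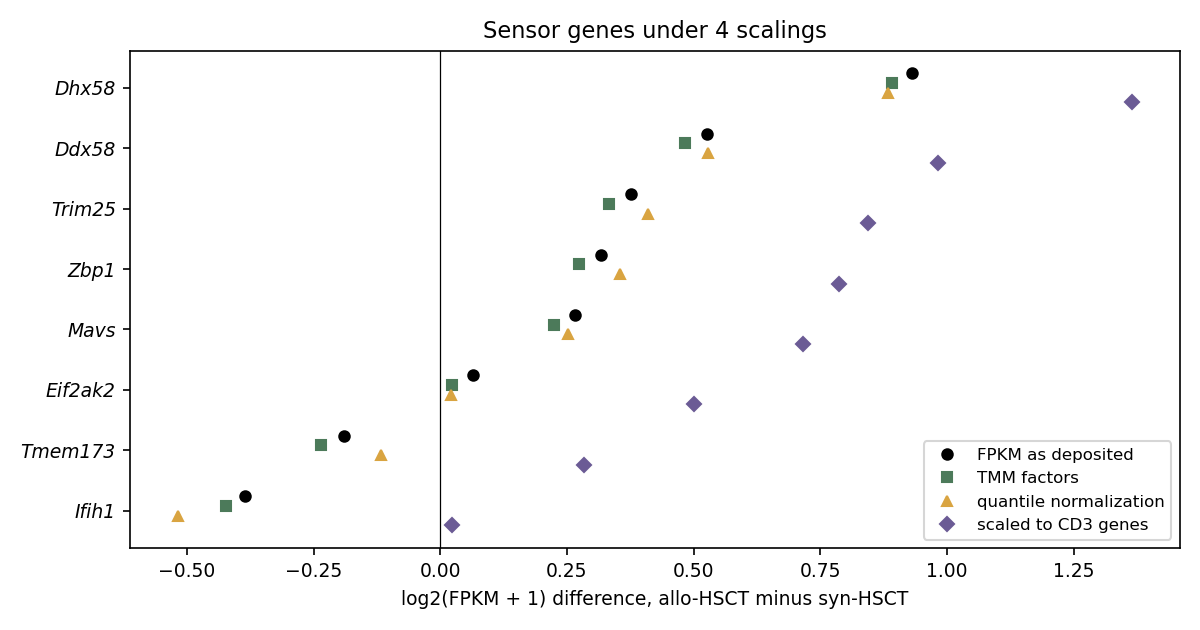
Log2(FPKM + 1) difference, allo-HSCT minus syn-HSCT (horizontal axis), of each sensor gene under 4 scalings (symbols). The order of the genes from Dhx58 to Ifih1 is the same under all 4 scalings, and the CD3 scaling moves all 8 to the right of 0, with Ifih1 at 0.02 not called.

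Around the sensors, 168 other genes of the same pathways were listed in 7 groups; 155 were in the table and 154 were tested, of which 65 were called higher, 54 lower and 35 not called, with a median log2 difference of 0.004, where 34.7% of all tested genes were called higher and 33.0% lower. With CD3 scaling the counts were 122 higher and 14 lower, where 8301 of all 12404 tested genes were called higher and 1374 lower. The directions below are therefore those of the deposited FPKM. In the relay that carries the signal from MAVS, 10 of 24 genes rose, 7 fell and 7 were not called, with a median of -0.01; both counts are near those shares of all tested genes. The interferon regulatory factor gene Irf7 averaged 44.0 FPKM ± 1.82 in allo-HSCT-labelled libraries, against 14.2 FPKM ± 0.148 in syn-HSCT-labelled libraries (SD, n = 3 each; limma adjusted p = 1.36e-07), and Irf5 was 5.86-fold higher. Both are expressed strongly in dendritic cells and macrophages, most of whose markers were higher in the same libraries, and that part was not tested. Ikbke, of the kinase that phosphorylates interferon regulatory factors, was 1.56-fold and Ikbkb, of the NF-kappa-B kinase, 1.72-fold higher (limma adjusted p = 4.93e-06 and 8.64e-06). The 7 lower calls of this list became 4 when either allo-HSCT replicate 2 or syn-HSCT replicate 3 was left out.

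Among regulators of the RIG-I-like receptors, 14 of 31 tested genes rose, 12 fell and 5 were not called, with a median of 0.01. Of all tested genes, 34.7% were called higher and 33.0% lower. Ddx60, of a helicase that has been linked to RIG-I, was at 3.11 FPKM ± 0.0591 in allo-HSCT-labelled libraries, against 0.612 FPKM ± 0.104 in syn-HSCT-labelled libraries (SD, n = 3 each; limma adjusted p = 8.78e-06). Smurf1, a ubiquitin ligase gene, was 2.47-fold higher. Rnf125, the gene of a ligase that marks RIG-I for degradation, was 1.83-fold lower, and Ddx1, of another RNA helicase, 2.12-fold lower.

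The genes of cytosolic DNA sensing had more falls than rises in deposited FPKM, 19 against 9 of 34 tested with 6 not called. Of all tested genes, 33.0% were called lower and 34.7% higher. With CD3 scaling 21 genes of the list were called higher and 7 lower. On that scale 8301 of all 12404 tested genes were called higher and 1374 lower. The median of the list was -0.17 in deposited FPKM, against 0.01 for all tested genes. Hmgb1, which encodes a chromatin protein that also binds cytosolic nucleic acid, averaged 18.9 FPKM ± 1.27 in allo-HSCT-labelled libraries, against 41.2 FPKM ± 0.939 in syn-HSCT-labelled libraries (SD, n = 3 each; limma adjusted p = 2.52e-06). Surf4, of a cargo receptor that returns STING to the endoplasmic reticulum, was 1.39-fold lower, but had a log2 difference of 0.02 with CD3 scaling. Ifi205 and Ifi204, members of a family of DNA-binding proteins, were 13.1-fold and 14.5-fold higher (limma adjusted p = 1.55e-08 and 1.57e-06). The family did not move together. Ifi207, Mndal and Aim2 were also called higher. Ifi213 and Ifi206 were 6.66-fold and 2.37-fold lower (limma adjusted p = 4.32e-06 and 5.19e-06). Ifi203 was called lower, and Ifi209 and Mnda were not called. The family has near-identical neighbours, so reads between them are uncertain, and macrophages express both Ifi205 and Ifi204. Mb21d1, which encodes cGAS, was outside the rule for named genes and is given because it stands just before STING: it averaged 9.53 FPKM ± 0.463 in allo-HSCT-labelled libraries, against 6.09 FPKM ± 0.303 in syn-HSCT-labelled libraries (SD, n = 3 each; limma adjusted p = 1.02e-04).

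Of 18 tested genes that remove or edit self nucleic acid, 6 rose, 4 fell and 8 were not called, with a median of -0.02. Of all tested genes, 34.7% were called higher and 33.0% lower. The 4 genes of the list that fell became 2 without allo-HSCT replicate 1 or without syn-HSCT replicate 2. Dnase1l3, a nuclease gene of dendritic cells and macrophages, was 13.5-fold higher and Samhd1, of a nucleotide hydrolase, 1.43-fold higher. Rnaset2a was 2.02-fold higher and has a near-identical copy, Rnaset2b, so its value is uncertain. Rnaseh2b, of an RNase H2 subunit that clears RNA from DNA, averaged 4.08 FPKM ± 0.202 in allo-HSCT-labelled libraries, against 12.0 FPKM ± 0.523 in syn-HSCT-labelled libraries (SD, n = 3 each; limma adjusted p = 1.40e-06). Among 11 genes that act with ZBP1 or in necroptosis, 5 rose, 4 fell and 2 were not called, with a median of -0.05, beside the same shares of all tested genes. Mlkl, of the pore-forming executioner, averaged 1.81 FPKM ± 0.174 in allo-HSCT-labelled libraries, against 5.84 FPKM ± 0.386 in syn-HSCT-labelled libraries (SD, n = 3 each; limma adjusted p = 8.86e-06). Casp8, of the protease that holds necroptosis in check, was 1.33-fold lower, but had a log2 difference of 0.07 with CD3 scaling and was not called. Adar, which edits double-stranded RNA, was 1.33-fold higher, and Nlrp3, an inflammasome gene of myeloid cells, 22.1-fold higher.

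Around PKR and the integrated stress response, 9 of 24 tested genes fell, 8 rose and 7 were not called, with a median of -0.03. Of all tested genes, 33.0% were called lower and 34.7% higher. Prkra, which encodes the PKR activator PACT, averaged 10.9 FPKM ± 0.564 in allo-HSCT-labelled libraries, against 1.23 FPKM ± 0.108 in syn-HSCT-labelled libraries (SD, n = 3 each; limma adjusted p = 2.63e-07), the largest gain of this list. Asns, an asparagine synthetase gene that ATF4 induces, was 5.07-fold lower. Ppp1r15a, of a subunit that reverses eIF2 phosphorylation, was 1.94-fold higher, and Eif2s2, of the eIF2 beta subunit, 1.33-fold lower, the last with a log2 difference of 0.07 and no call under CD3 scaling.

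Type I interferon signalling was the list with the most uniform direction. In limma's test of 15 genes, 14 rose, 0 fell and 1, Irf2, was not called (log2 difference -0.09, limma unadjusted p = 0.0478). Of all tested genes, 34.7% were called higher and 33.0% lower. The median of the list was 0.57, against 0.01 for all tested genes. Without allo-HSCT replicate 1, or with TMM factors or voom, 1 gene of the list was called lower. The interferon genes Ifnb1, Ifna1, Ifna2 and Ifna4 were listed but were not among the genes of the table, so they have no values here. Ifnar2, of a receptor chain, averaged 28.1 FPKM ± 0.542 in allo-HSCT-labelled libraries, against 6.55 FPKM ± 0.0894 in syn-HSCT-labelled libraries (SD, n = 3 each; limma adjusted p = 4.14e-08). Usp18, an interferon-induced brake on that receptor, was 4.14-fold higher, Stat2 1.95-fold higher and Jak1 1.42-fold higher. Tested markers of dendritic cells, macrophages and neutrophils, other than Ly6c2 and Elane, rose in the same libraries, and their part in this list was not tested.

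**Figure D5:**
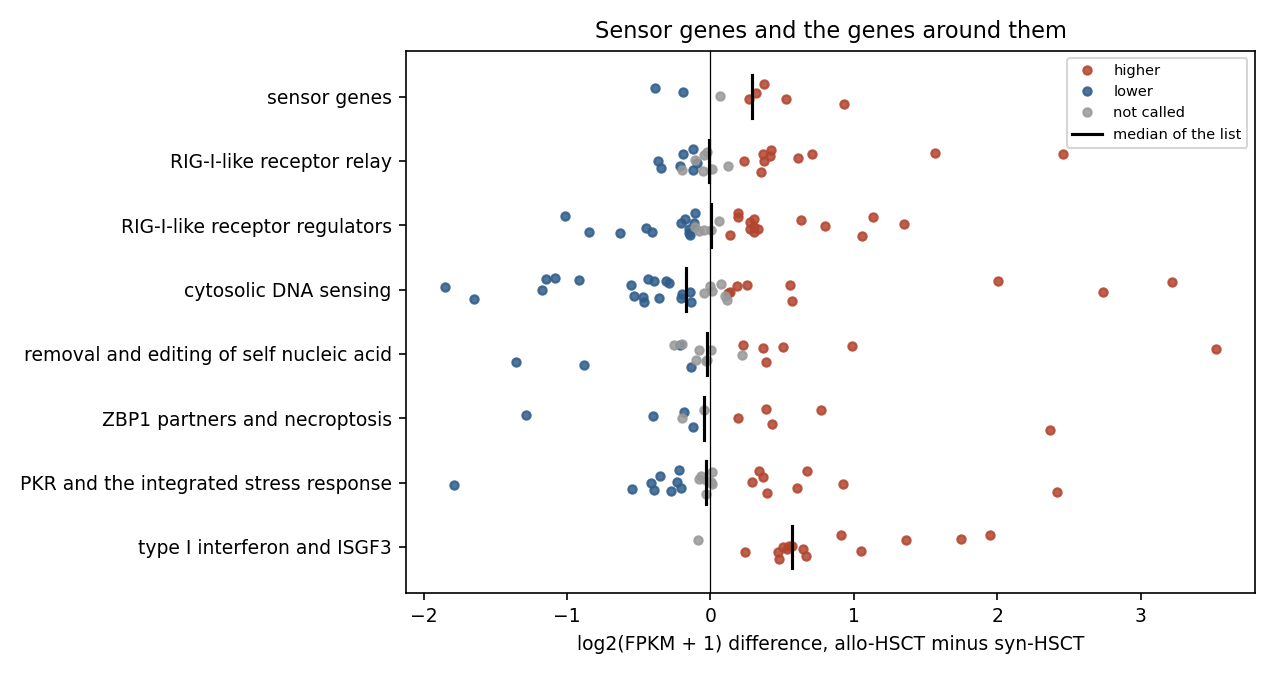
Log2(FPKM + 1) difference, allo-HSCT minus syn-HSCT (horizontal axis), of each tested gene (points) in the sensor genes and 7 lists of genes around them, coloured by limma call in deposited FPKM; black bars are list medians. The type I interferon list has a median of 0.57 and no gene called lower in deposited FPKM, and the DNA sensing list a median of -0.17. With libraries scaled to CD3 genes the lower calls of all lists fall from 54 to 14, and those of all tested genes from 4092 to 1374.

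Genes with the most similar profiles were sought among 7676 others with a mean of at least 5 FPKM, by the root mean square distance between log2(FPKM + 1) profiles over the 6 libraries, each centred on its own mean. Mvp, Arid4a and Ssfa2 lay nearest to Dhx58, at distances of 0.025, 0.04 and 0.041. Vat1, Lman2 and Ipo7 lay nearest to Ifih1, at 0.013, 0.018 and 0.019.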

How the data were processed

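Per the labels' protocols, total RNA of CD8+ T cells isolated from spleen was depleted of ribosomal RNA before Illumina libraries were made. The deposited values are FPKM in 1 table; the unit was read from the values, since FPKM times exon length in GENCODE vM21 (14730 of 14750 identifiers matched) gave whole fragments within 0.1 in all 6 libraries for 93.1% of matched genes, and for 7 of the 8 sensor genes (not Tmem173). Limma is named in the submitters' processing notes without version or role; aligner, counter and build are not given in the sources used here.

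Genes reaching 1 FPKM in 3 or more libraries entered a linear model of log2(FPKM + 1) by limma 3.58.1 (R 4.3.3) with a trended empirical Bayes step, and a gene was called where its Benjamini-Hochberg adjusted p stood under 0.05. The pseudocount shrinks differences of low genes, so each fold quoted is one mean FPKM divided by another. The fit was tested on simulated counts with known folds. These held no difference in scaling or cell makeup between groups, so the test does not bear on either. Squared differences between libraries of a group were, by the median, 2.30 to 2.48 times those that counting noise gives, so none was a copy of another's reads. Whether libraries of a group shared an RNA sample cannot be told from these values. The 8 genes and all lists were chosen with earlier results of these data known. Named genes are the 8 and the 4 of smallest p in each list (plus calls against the majority, if at most 3). The 3 nearest profiles of 2 genes and check genes are also named. Mb21d1, Irf2 and further members of the family of Ifi205 and Ifi204 were added after values were seen. Same-numbered libraries are not known to be paired. Alternatives are given in the closing section; the recovered-fragment fit was added after the data were seen.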

Additional observations from a re-analysis of the deposited data

How the results depend on the processing

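Over 18 settings (as deposited, each library left out, replicate block, no filter or 5 FPKM, pseudocounts of 0.1 and 0.01, quantile or TMM scaling, removal of immune receptor, haemoglobin and mitochondrial genes, eBayes without trend or robust, and voom on recovered fragments, added after the data were seen), every call of the 8 genes kept its direction and side of the threshold. Mavs came closest to losing its call, with limma adjusted p from 0.0018 to 0.0466, and Tmem173 had 4.60e-04 to 0.0282. Leaving out each library in turn gave 5 sensor genes called higher and 2 lower each time, 63 to 65 pathway genes higher and 45 to 49 lower. The difference in share, in percentage points, then lay between -12.8 and -11.7 for Ifih1, 10.4 and 11.0 for Dhx58, and 1.10 and 2.04 for Ddx58.

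Scaled to CD3 genes, 0 of the 8 genes were called lower, and log2 differences were 0.0238 for Ifih1, 0.284 for Tmem173 (called higher), 0.50 for Eif2ak2 (called higher), 0.0151 for Surf4, 0.0741 for Casp8 and 0.0684 for Eif2s2. Pathway calls were then 122 higher and 14 lower, and those of all 12404 tested genes 8301 higher and 1374 lower. The median of all genes moves by construction. Requiring 2-fold left 1 sensor gene higher and 0 lower, and 16 pathway genes higher and 9 lower. The share of all tested genes that passes this cut is not given here, so whether these counts are usual cannot be told. The stricter motif GAAACNGAA matched in 3 of 5 promoters, not Ddx58.

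With the replicate number as a block, 5 sensor genes were called higher and 2 lower, and 4164 of all genes higher and 3949 lower, against 4298 and 4092 without it. Same-numbered libraries had correlations of deviations of 0.063, 0.12 and -0.083, so the numbers are not known to pair libraries. The MAVS relay had 4 lower calls under the block, against 7. With CD3 scaling the higher and lower calls were 22 and 0 in that relay, 25 and 3 among regulators, 15 and 2 for removal of self nucleic acid (7 lower with quantile normalization), 8 and 1 for ZBP1 partners and 18 and 1 around PKR. Of all 12404 tested genes, 8301 were called higher and 1374 lower with CD3 scaling. The fewest fragments behind a sensor gene were 304, for Dhx58.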
